A study of Mus musculus with 6 samples.

Results

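The genes described here encode respiratory complex I, the NADH:ubiquinone oxidoreductase of mitochondria, and the factors that help build it. Every gene of the deposited expression table whose symbol begins with *Nduf* was taken, which gave 45 of 23995 listed genes. Of these, 38 are named as subunits (*Ndufa*, *Ndufb*, *Ndufc*, *Ndufs*, *Ndufv* and *Ndufab*) and 7 as assembly factors (*Ndufaf*). All 45 passed the filter on low values. The table held 0 mitochondrially encoded genes, so the complex I subunits made inside mitochondria are not analysed here.

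RNA was sequenced from mouse hearts after transverse aortic constriction, abbreviated TAC, a surgical tie around the aorta that makes the left ventricle pump against raised pressure. All mice were operated on at 10 to 12 weeks of age, and both groups had TAC, so each difference is between the genotype groups after TAC. No library came from mice without TAC, so a difference present before surgery and one in the response to TAC cannot be told apart. One group was labelled WT and gave 3 libraries, and the other was labelled LTBP4-CKO and gave 3 libraries. LTBP4-CKO mice carry an inducible, cardiomyocyte-specific knockout of *Ltbp4*, which encodes a matrix protein that holds TGF-beta in its latent form. Flox appears in the names of the wild-type libraries, and the labels do not say which alleles those mice had, which Cre line or inducer was used, or how long after surgery the hearts were taken. The design asked what cardiomyocyte *Ltbp4* does in the remodelling of the pressure-loaded heart.

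Complex I takes electrons from NADH, passes them along a chain of iron-sulfur clusters to ubiquinone and pumps protons across the inner mitochondrial membrane. Its core subunits carry the catalysis and are conserved from bacteria, the accessory subunits surround them in a peripheral arm and a membrane arm, and the assembly factors act while the enzyme is built and then leave it. The heart relies on oxidative phosphorylation for most of its ATP, and cardiomyocytes are packed with mitochondria. The roles given below come largely from work on human, bovine and mouse mitochondria.

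Expression is given as FPKM, fragments per kilobase of transcript scaled to library size, so levels of different genes can be set side by side. Recovered depth was low, at about 3700000 to 5800000 fragments in the wild-type libraries and 5900000 to 14000000 in the knockout libraries, with knockout library 1 the deepest. Wild-type libraries 1 and 3 resembled each other closely, with a Pearson's r of 0.992 across genes, and so did knockout libraries 2 and 3, at 0.993, whereas the other 13 pairs lay between 0.894 and 0.944. The differences within these 2 close pairs were near sampling noise, so each pair was averaged and counted as 1 sample, leaving 2 samples per genotype. The titles of the libraries differ, also within the close pairs, but no label says that the libraries came from separate animals. The p-values thus measure only the spread between these samples, which may be technical. *Ltbp4* itself stood at 368, 248 and 357 FPKM in the 3 wild-type libraries, in order, against 139, 199 and 195 in the 3 knockout libraries. It was lower in every knockout library, and the difference of −0.86 on the log2 scale did not pass the test (limma, adjusted p = 0.999). All 10 cardiomyocyte markers were above 0 in every library. Atrial markers set wild-type libraries 1 and 3 apart: *Sln*, the atrial calcium-pump regulator sarcolipin, read 1857 and 1847 FPKM there, against 4.31 in wild-type library 2 and between 0.684 and 5.44 in the knockout libraries.

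Complex I subunit transcripts were abundant in every library. Setting *Ndufa4* and *Ndufa4l2* aside for the reasons given below, the median of the other 36 subunits was 257, 353 and 257 FPKM in the wild-type libraries, in the order 1 to 3, against 827, 314 and 319 FPKM in the knockout libraries. Knockout library 1 therefore stood far above the other 5 libraries, and wild-type libraries 1 and 3 lay below the rest. The 38 subunits together made up 1.53%, 2.26% and 1.56% of the summed FPKM in the wild-type libraries and 4.49%, 2.28% and 2.29% in the knockout libraries. Assembly factor transcripts were much scarcer: the median subunit level was between 26.6 and 38.7 times the median assembly factor level in the same library.

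The order of the subunits by level was much alike from sample to sample. *Ndufa3*, a small membrane-arm subunit, was the highest of the 36 in every library, between 1061 and 2962 FPKM. *Ndufs1*, which encodes the largest core subunit and holds several iron-sulfur clusters, was the lowest in every library, between 28.3 and 118 FPKM. The highest level was 25.2 to 57.2 times the lowest within a library. Spearman's rho of the 36 levels between pairs of the 4 samples ran from 0.869 to 0.951 over the 6 pairs, a description across genes that share libraries. Levels ran against transcript length (rho −0.468 across the 36 genes, whose median transcript lengths range from 382 to 2625 bases), and FPKM of transcripts near the length of a fragment is less certain than that of long ones.

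Promoter sequence was read for the members because their transcripts varied together between libraries. RefSeq windows on build GRCm38.p6, from 250 bases before to 50 bases after the annotated start, were at hand for 39 of the 45 genes, 33 of them subunits. The motif read as GCGCA and GCGC with any 1 base between them, bound by nuclear respiratory factor 1 (NRF1), a known regulator of nuclear genes for respiration, was searched on both strands; it is nearly its own reverse complement, so both strands can match the same bases. A gene was counted if any of its windows matched, and *Ndufa5* and *Ndufa7* have 2 windows each. The NRF1 motif occurred in 7 of 33 subunits (21.2%), in 5.19% of all 27025 genes with a window and in 11.3% of the tested genes with one. The motif AAGATGGC is bound by YY1, a factor that acts at many such start sites. It occurred in 7 of 33 subunits (21.2%), against 3.19% of all genes with a window and 5.24% of the tested ones. Each of the 7 YY1 matches lay on the forward strand, beginning 22 to 38 bases after the start. *Ndufs6* was the only subunit with both motifs, and its matches lie apart, the NRF1 match before the start and the YY1 match after it. The remaining 3 motifs were not more frequent among the subunits than among the tested genes. CCGGAAG of the ETS factor GABPA occurred in 4 of 33 subunits (12.1%, against 19.7%). The E-box CACGTG occurred in 2 (6.06%, against 11.7%), and TCAAGGTCA of the estrogen-related receptors in 0 (against 0.319%). These matches are descriptions of the windows and not binding sites.

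Of the subunits with an NRF1 match, *Ndufa11*, *Ndufa5*, *Ndufa8* and *Ndufs5* are printed below as the 120 bases just before the start, with the NRF1 match in capitals. Pearson's r with the mean of the other subunits over the libraries was 0.97, 0.92, 0.96 and 0.21 for these, in order. It was 0.91 for *Ndufb4*, 0.89 for *Ndufa6* and 0.74 for *Ndufs6*, which have a match and are not printed. Positions are counted back from the start, so that −1 is the base before it.
*Ndufa11*, chr17:56717642-56717761, plus strand, match from −60: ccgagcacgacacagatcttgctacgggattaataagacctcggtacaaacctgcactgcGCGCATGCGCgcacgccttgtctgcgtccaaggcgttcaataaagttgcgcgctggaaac
*Ndufa5*, chr6:24527691-24527810, minus strand, match from −26: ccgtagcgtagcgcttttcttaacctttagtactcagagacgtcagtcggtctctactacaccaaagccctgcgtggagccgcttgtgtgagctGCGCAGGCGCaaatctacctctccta
*Ndufa8*, chr2:36049339-36049458, minus strand, match from −30 read on the other strand: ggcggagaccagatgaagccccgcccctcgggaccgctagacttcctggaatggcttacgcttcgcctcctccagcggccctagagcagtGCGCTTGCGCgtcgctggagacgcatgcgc
*Ndufs5*, chr4:123718187-123718306, minus strand, match from −98: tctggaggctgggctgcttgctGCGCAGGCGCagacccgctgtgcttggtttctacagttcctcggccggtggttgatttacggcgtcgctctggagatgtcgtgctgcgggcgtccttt

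After TAC, complex I subunit transcripts had mostly higher estimates in knockout than in wild-type hearts, and no single gene passed the test. The median difference over the 38 subunits was 0.93 on the log2(FPKM + 1) scale, with 37 estimates above 0 and 1 below, beside a median of 0.04 and 54.2% above 0 over all 12485 genes tested. Differences below are on this scale, knockout minus wild type. Of the 45 members, 0 passed at an adjusted p under 0.05, against 1 gene (0.00801%) in the whole table, and 0 had an unadjusted p under 0.05, against 3.00% of all genes (limma). The lowest adjusted p among the members was 0.999, and every 95% interval included 0. In RNA from heart tissue, a change in the number of cells of a type and a change in RNA per cell cannot be told apart.

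The group difference rested on individual libraries. Knockout library 1 was the highest of all 6 for 37 of 38 subunits and 6 of 7 assembly factors, whereas 26.0% of all genes were highest there. Wild-type libraries 1 and 3 were the lowest pair for 30 of 38 subunits and 1 of 7 assembly factors, against 20.1% of all genes. Without knockout library 1 the subunit median was 0.24, with 27 of 38 estimates above 0 (49.8% of all genes). Without wild-type libraries 1 and 3 it was 0.59, and with knockout library 1 as the only knockout sample it was 1.58. In that last fit 34 of 45 members had an unadjusted p under 0.05, against 7.86% of all genes, and 0 passed after adjustment (limma), where the lone knockout sample is assumed to vary like the wild-type ones. When knockout libraries 2 and 3 were set against wild-type library 2 alone, the median was −0.02, and 18 of 38 subunits were higher in knockout (49.8% of all genes). Knockout library 1, the highest in complex I transcripts, was also the deepest, and the part of depth in the differences was not tested.

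Fewer members separated the genotypes library by library. In 14 of 38 subunits and 2 of 7 assembly factors every knockout library was above every wild-type library, 16 of 45 in all, against 10.4% of all genes. In 0 of 45 was every knockout library below every wild-type library, against 11.5% of all genes. The subunits that were higher in every knockout library included *Ndufa1*, *Ndufa4*, *Ndufa9*, *Ndufa11*, *Ndufb2*, *Ndufb6*, *Ndufb7*, *Ndufb8*, *Ndufb9*, *Ndufb11*, *Ndufc1*, *Ndufs4* and *Ndufs6*, and 9 of them belong to the membrane arm. With 3 libraries per genotype and 2 pairs of near repeats, these counts are a description of the libraries.

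**Figure D1:**
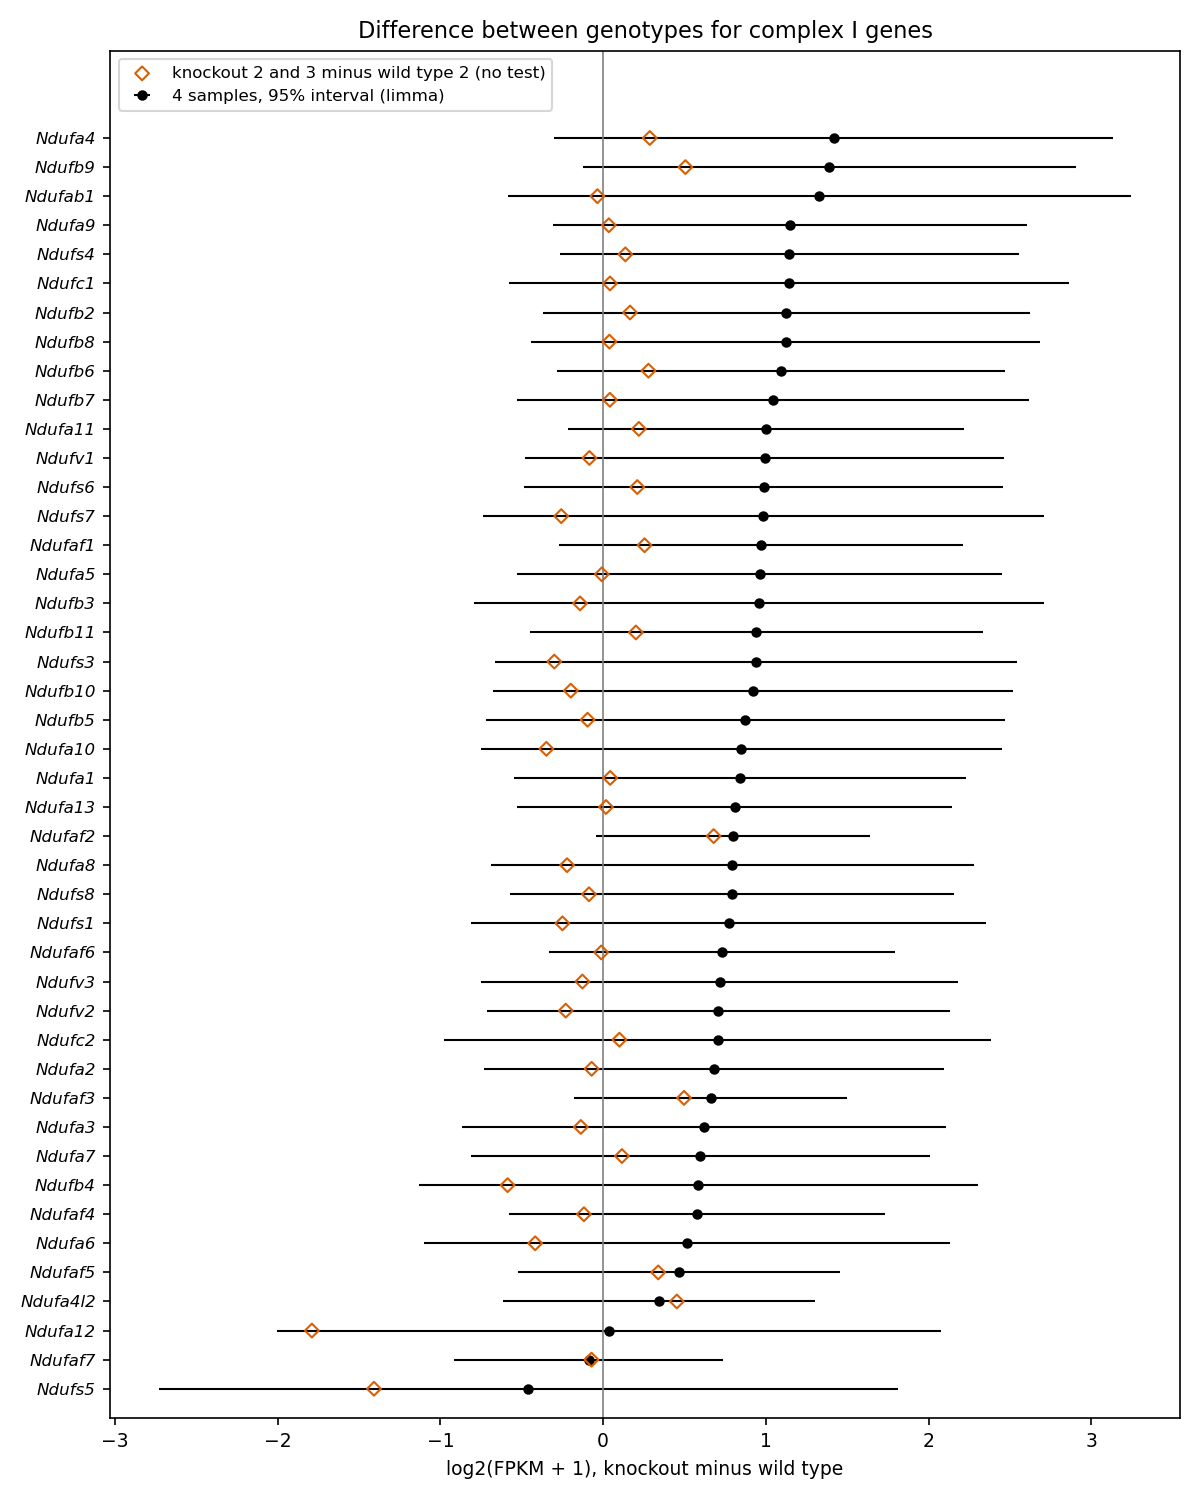
Difference between genotypes for the complex I genes reported by name on the log2(FPKM + 1) scale, knockout minus wild type. Filled points with bars are limma estimates from 4 samples with 95% intervals, all of which include 0; open diamonds compare knockout libraries 2 and 3 with wild-type library 2 alone, without a test, and range from −1.79 for *Ndufa12* to 0.68 for *Ndufaf2*.

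The core subunits described here had estimates between 0.71 and 0.99, all above 0. *Ndufv1*, which binds NADH and the flavin that takes its electrons, read 104, 229 and 98.3 FPKM in the wild-type libraries, in the order 1 to 3, against 426, 218 and 213 in the knockout libraries. Wild-type library 2 lay just above knockout libraries 2 and 3, so the groups overlapped, and the difference was 0.99 (SE 0.61). Its partner *Ndufv2*, which holds an iron-sulfur cluster beside the flavin, read 90.4, 130 and 103 FPKM in the wild-type libraries against 305, 106 and 115 in the knockout ones. Apart from knockout library 1, its libraries were interleaved, and the difference of 0.71 (SE 0.59) became −0.02 without that library.

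*Ndufs1* read 34.5, 34.2 and 32.1 FPKM in the wild-type libraries against 118, 28.3 and 28.9 in the knockout ones. Knockout libraries 2 and 3 were the lowest of all 6 and knockout library 1 the highest, so the sign turned from 0.77 (SE 0.66) to −0.23 without knockout library 1. The table places *Ndufs1* at chr1:63114471-63176822, a span of 62352 bases against 33238 in the annotation, and its exons overlap those of *Eef1b2* on the other strand.

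*Ndufs3*, a core subunit of the peripheral arm, read 91.4, 167 and 94.8 FPKM in the wild-type libraries against 426, 132 and 139 in the knockout ones, with wild-type library 2 above knockout libraries 2 and 3. *Ndufs7*, which holds the last iron-sulfur cluster before ubiquinone, read 278, 418 and 256 FPKM in the wild-type libraries against 1256, 357 and 343 in the knockout ones, with the same overlap. The locus listed for *Ndufs7*, chr10:79697305-80369637, spans 672333 bases against 7674 in the annotation, so reads of other genes may be counted in it. *Ndufs8*, which carries a pair of iron-sulfur clusters, read 141, 256 and 153 FPKM in the wild-type libraries against 471, 244 and 237 in the knockout ones. The estimates of these genes were 0.94 for *Ndufs3*, 0.99 for *Ndufs7* and 0.79 for *Ndufs8*.

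The 9 accessory subunits of the peripheral arm had a median difference of 0.72, with 9 of 9 above 0 (54.2% of all genes). In 3 of 9 every knockout library was above every wild-type library, against 10.4% of all genes. Without knockout library 1 the median was 0.36, with 6 of 9 above 0. *Ndufs4*, whose loss in mice gives a model of Leigh syndrome, read 38.8, 53.7 and 39.0 FPKM in the wild-type libraries against 176, 58.0 and 60.3 in the knockout ones. The knockout libraries were all higher, though libraries 2 and 3 only slightly so, and the difference was 1.15 (SE 0.59). *Ndufa9*, which binds a nucleotide cofactor where the arms meet, read 75.4, 137 and 64.8 FPKM in the wild-type libraries against 339, 142 and 139 in the knockout ones, a difference of 1.15 (SE 0.61). Here, too, wild-type library 2 came close to knockout libraries 2 and 3.

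*Ndufs6*, which helps attach the NADH-binding module, read 329, 826 and 356 FPKM in the wild-type libraries against 1165, 1001 and 910 in the knockout ones. All knockout libraries were above all wild-type libraries, and knockout library 1 stood out less than for most subunits: it was 1.41 times wild-type library 2, where the median subunit ratio was 2.49. The estimate for *Ndufs6* was 0.99 (SE 0.61) and stayed at 0.84 without knockout library 1. *Ndufa6*, a member of the LYR-motif family that docks an acyl carrier protein, read 555, 598 and 475 FPKM in the wild-type libraries against 1411, 443 and 451 in the knockout ones. Its knockout libraries 2 and 3 were the lowest of all, and the difference of 0.52 became −0.31 without knockout library 1. *Ndufa7* read 470, 386 and 443 FPKM in the wild-type libraries against 965, 421 and 416 in the knockout ones, with an estimate of 0.60 that was −0.00490 without knockout library 1.

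*Ndufa12*, which sits near the junction of the NADH-binding module, was the subunit that did not peak in knockout library 1. It read 62.8, 478 and 156 FPKM in the wild-type libraries against 401, 166 and 109 in the knockout ones. Wild-type library 2 was the highest and wild-type library 1 the lowest, so the genotypes overlapped entirely, and the difference was 0.04 (SE 0.85). Its sign depended on the processing: it was −0.10 with values rescaled to TPM and −1.02 without wild-type libraries 1 and 3. The near-repeat libraries also disagreed on this gene, by 1.31 on the log2 scale between wild-type libraries 1 and 3 and by −0.60 between knockout libraries 2 and 3, where the median subunit differed by 0.118 and 0.0461 in size.

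The 19 accessory subunits of the membrane arm had a median difference of 0.92, with 18 of 19 above 0 (54.2% of all genes). In 9 of 19 every knockout library was above every wild-type library, against 10.4% of all genes. The median was 0.24, with 13 of 19 above 0, when knockout library 1 was left out. *Ndufb9*, another LYR-motif subunit, read 422, 547 and 383 FPKM in the wild-type libraries against 1952, 793 and 762 in the knockout ones. Its knockout libraries were all clearly above the wild-type ones, with means of 475 ± 102 and 1365 ± 831 FPKM (SD, n = 2 samples each), a difference of 1.39 (SE 0.63) and the smallest unadjusted p among subunits, 0.0661 (limma). It kept a difference of 0.51 when knockout libraries 2 and 3 were set against wild-type library 2 alone, the largest such value among the subunits. The exons of *Ndufb9* overlap those of *Gm49356* on the same strand. *Ndufc1*, a small subunit of the membrane arm, read 459, 626 and 502 FPKM in the wild-type libraries against 2274, 640 and 649 in the knockout ones, a difference of 1.14 (SE 0.72).

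*Ndufb2* read 393, 723 and 347 FPKM in the wild-type libraries against 1574, 807 and 816 in the knockout ones, a difference of 1.13 (SE 0.62). *Ndufb8*, often used as a protein marker of assembled complex I, read 291, 507 and 293 FPKM in the wild-type libraries against 1349, 533 and 509 in the knockout ones, a difference of 1.12 (SE 0.65). In both, wild-type library 2 lay just under knockout libraries 2 and 3. *Ndufb7*, a cysteine-rich subunit facing the intermembrane space and the second most abundant of the 36, read 659, 1146 and 605 FPKM in the wild-type libraries against 2616, 1176 and 1183 in the knockout ones. *Ndufa3* read 1061, 1776 and 1215 FPKM in the wild-type libraries against 2962, 1580 and 1650 in the knockout ones, with wild-type library 2 above knockout libraries 2 and 3. The estimates were 1.05 for *Ndufb7* and 0.62 for *Ndufa3*.

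The scarcest membrane-arm subunits were *Ndufa11* and *Ndufa10*. *Ndufa11*, at the base of the membrane arm, read 56.2, 76.8 and 51.1 FPKM in the wild-type libraries against 186, 95.9 and 83.4 in the knockout ones, all knockout libraries being higher. *Ndufa10*, which resembles nucleoside kinases, read 72.1, 109 and 74.1 FPKM in the wild-type libraries against 305, 85.3 and 85.5 in the knockout ones, with wild-type library 2 above knockout libraries 2 and 3. The more abundant *Ndufb4* read 293, 377 and 264 FPKM in the wild-type libraries against 945, 236 and 265 in the knockout ones. For *Ndufa10* the estimate of 0.85 became −0.06 without knockout library 1, and for *Ndufb4* the estimate of 0.59 became −0.37.

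*Ndufs5*, a cysteine-rich subunit on the intermembrane side of the membrane arm, was the only subunit with an estimate below 0. It read 258, 167 and 399 FPKM in the wild-type libraries against 461, 76.9 and 47.5 in the knockout ones. Knockout library 1 was again the highest, but knockout libraries 2 and 3 were far below every wild-type library, and the difference was −0.46 (SE 0.95). It was −1.90 without knockout library 1 and 0.98 with knockout library 1 alone. As with *Ndufa12*, the near repeats differed on it, by 0.63 in the wild-type pair and by −0.70 in the knockout pair. At chr4:123712710-123718186 it has a transcript of 599 bases and no annotated exon overlap with another gene.

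*Ndufab1*, the mitochondrial acyl carrier protein, is present in both arms and also serves fatty acid synthesis and iron-sulfur cluster formation. It read 74.95, 87.1 and 69.6 FPKM in the wild-type libraries against 473, 91.5 and 78.4 in the knockout ones. Knockout library 1 was 5.43 times wild-type library 2, the largest such ratio among the subunits, while the other 5 libraries lay close together. The difference was 1.33 (SE 0.80), and 0.10 without knockout library 1.

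*Ndufa4* was long counted in complex I and is now assigned to cytochrome c oxidase, complex IV. It read 697, 1132 and 728 FPKM in the wild-type libraries against 4170, 1365 and 1397 in the knockout ones, the highest level of any member in knockout library 1. Every knockout library was above every wild-type library, with means of 922 ± 297 and 2775 ± 1972 FPKM (SD, n = 2 samples each) and the largest estimate of all members, 1.42 (SE 0.72). Its paralogue *Ndufa4l2*, known as a hypoxia-induced gene that restrains complex I, was far lower, at 61.3, 46.2 and 66.5 FPKM in the wild-type libraries against 75.3, 62.5 and 64.8 in the knockout ones. All 6 libraries lay between 46.2 and 75.3 FPKM, with an estimate of 0.34 (95% interval −0.616 to 1.301), and knockout library 1 exceeded wild-type library 2 by 1.63 times only.

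**Figure D2:**
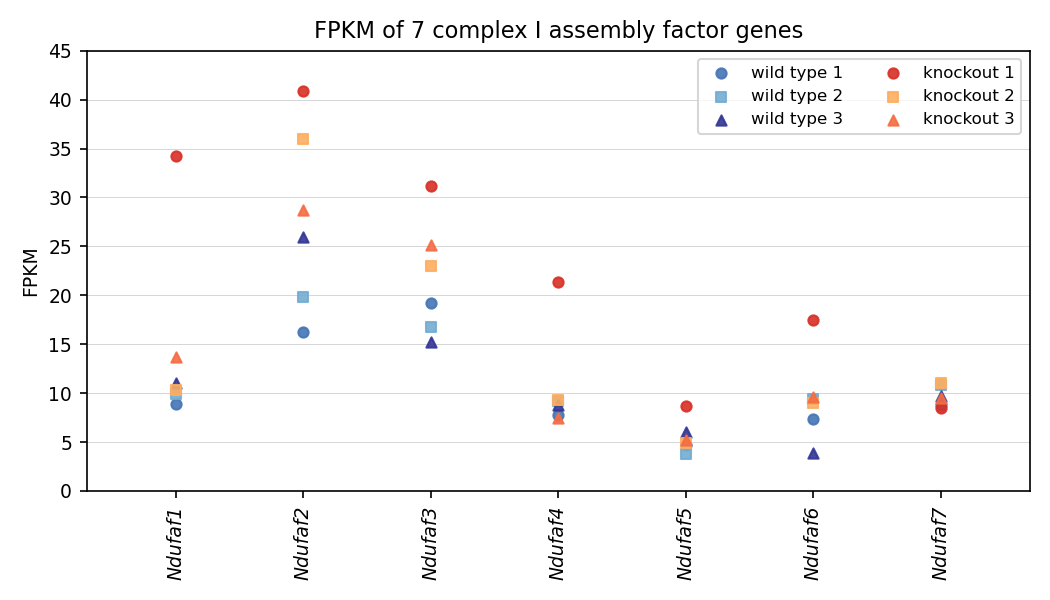
FPKM of the 7 assembly factor genes in each of the 6 libraries; each point is 1 library and the axis starts at 0. *Ndufaf2* and *Ndufaf3* have all 3 knockout libraries above all 3 wild-type libraries, and *Ndufaf7* lies between 8.48 and 11.1 FPKM in all 6.

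The 7 assembly factors had a median difference of 0.66, with 6 above 0 and 1 below. *Ndufaf2*, a paralogue of *Ndufa12* that precedes it on the assembling enzyme, read 16.3, 19.8 and 26.0 FPKM in the wild-type libraries against 40.8, 36.0 and 28.7 in the knockout ones. Its knockout libraries were all higher, with means of 20.5 ± 0.922 and 36.6 ± 6.01 FPKM (SD, n = 2 samples each), a difference of 0.80 (SE 0.35) and the smallest unadjusted p of all 45 members, 0.0600 (limma). Leaving out knockout library 1 gave 0.64, and leaving out wild-type libraries 1 and 3 gave 0.84. The near repeats differed on *Ndufaf2*, by 0.67 on the log2 scale in the wild-type pair and by −0.33 in the knockout pair. The SDs are between averaged samples and leave that spread out. Its wild-type values rest on about 31, 25 and 48 fragments, and its exons overlap those of *B230220B15Rik* on the other strand. *Ndufaf3*, which acts with *Ndufaf4* early in building the ubiquinone-binding module, read 19.2, 16.7 and 15.2 FPKM in the wild-type libraries against 31.2, 22.96 and 25.1 in the knockout ones. It also separated the genotypes, with a difference of 0.66 (SE 0.35), and its exons overlap those of *Impdh2* on the other strand.

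*Ndufaf4* read 7.74, 9.18 and 8.78 FPKM in the wild-type libraries against 21.4, 9.26 and 7.50 in the knockout ones, so that it was high in knockout library 1 alone. *Ndufaf1*, part of the complex that builds the membrane arm, read 8.89, 9.92 and 11.0 FPKM in the wild-type libraries against 34.2, 10.3 and 13.7 in the knockout ones. Its wild-type library 3 lay above knockout library 2, and the difference of 0.97 (SE 0.52) was 0.25 without knockout library 1. For *Ndufaf4* the difference was 0.58 and turned to −0.05 without it.

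*Ndufaf5*, which modifies an arginine of *Ndufs7*, was the scarcest member on average, at 4.74, 3.77 and 6.01 FPKM in the wild-type libraries against 8.65, 4.88 and 5.18 in the knockout ones. *Ndufaf6*, needed early in assembly, read 7.40, 9.38 and 3.89 FPKM in the wild-type libraries against 17.5, 8.97 and 9.63 in the knockout ones. In both genes the genotypes overlapped, with estimates of 0.47 (SE 0.41) and 0.73 (SE 0.44). *Ndufaf7*, a mitochondrial methyltransferase, read 8.76, 10.9 and 9.67 FPKM in the wild-type libraries against 8.48, 11.1 and 9.53 in the knockout ones. It was the only member for which knockout library 1 was the lowest of the 6, and its difference was −0.09 (95% interval −0.92 to 0.74).

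Assembly factors that carry other names also had estimates above 0. The locus *1810043H04Rik*, an older name of *Ndufaf8* in the RefSeq gene table, read 150, 106 and 124 FPKM in the wild-type libraries against 205, 127 and 133 in the knockout ones, an estimate of 0.44. Of 10 further factors, 10 had estimates above 0, with a median of 0.58, and 0 passed the test (limma). Their median was 0.28, with 6 of 10 above 0, when knockout library 1 was left out. *Nubpl*, which delivers iron-sulfur clusters to complex I, read 4.33, 2.36 and 3.79 FPKM in the wild-type libraries against 7.68, 6.42 and 5.86 in the knockout ones. *Tmem126b*, a partner of *Ndufaf1*, read 4.64, 4.13 and 11.1 FPKM in the wild-type libraries against 19.2, 9.74 and 8.65 in the knockout ones, where wild-type library 3 lay above knockout libraries 2 and 3. Both had higher values in knockout libraries 2 and 3 than in wild-type library 2, by 1.09 and 0.99.

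The balance among the 36 subunits varied less than their summed level. After each library's subunit median was removed, the median subunit ranged over 0.55 on the log2 scale across the 4 samples, and 5 subunits ranged over more than 1. These were *Ndufs5* (2.69), *Ndufa12* (1.69), *Ndufab1* (1.21), *Ndufs6* (1.19) and *Ndufc2* (1.08). *Ndufab1* was raised relative to the others in knockout library 1 only. *Ndufs6* was relatively high in wild-type library 2 and knockout libraries 2 and 3 and relatively low in the remaining 3. *Ndufc2*, a membrane-arm subunit, read 242, 162 and 259 FPKM in the wild-type libraries against 621, 178 and 168 in the knockout ones, relatively high in wild-type libraries 1 and 3.

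**Figure D3:**
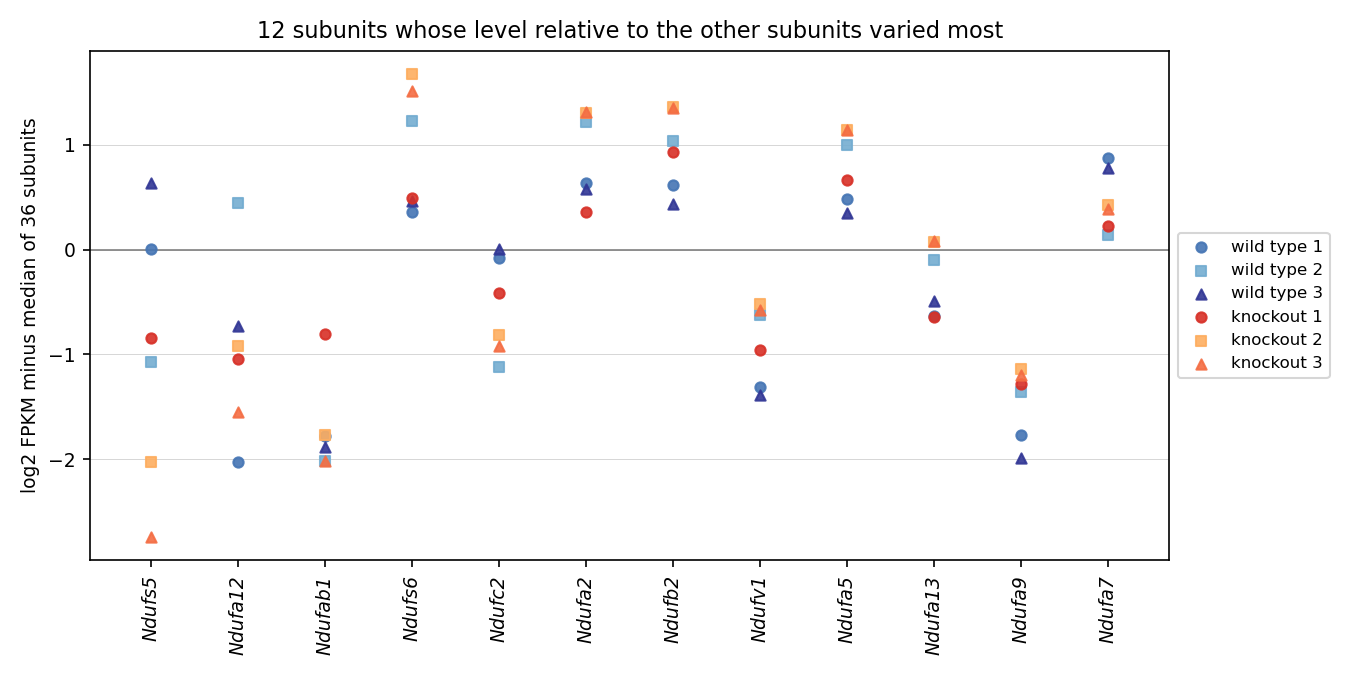
Level of the 12 subunits that varied most relative to the others, as log2 FPKM minus the median of 36 subunits in the same library; each point is 1 library. *Ndufs5* ranges from 0.63 in wild-type library 3 to −2.75 in knockout library 3, and *Ndufs6* is high in wild-type library 2 and in knockout libraries 2 and 3.

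The members also differed in their likeness to each other. Over the 6 libraries, 23 of 38 subunits had a Pearson's r of at least 0.95 with the mean of the other subunits, up to 0.999 for *Ndufv3*, an accessory subunit beside *Ndufv1*. Of the 7 assembly factors 0 reached it, but *Ndufaf4* (0.94) and *Ndufaf1* (0.93) lay above subunits such as *Ndufv1* (0.92) and *Ndufs1* (0.89). Assembly factor values mostly rest on fewer fragments, for example about 23, 12 and 30 for *Ndufaf5* in the wild-type libraries. The part of this in their lower r was not tested. The lowest values were −0.33 for *Ndufaf7*, 0.21 for *Ndufs5*, 0.38 for *Ndufa4l2* and 0.66 for *Ndufa12*. Of 12421 genes outside the family, 337 (2.71%) reached 0.95 with the subunit mean. The 10 most like it were *Gpr157*, *Ryr2*, *Mrpl55*, *2310015A10Rik*, *Got1*, *Actn2*, *Slc25a12*, *Pxmp2*, *Perm1* and *Ldhb*, with r from 0.996 to 0.999. *Ryr2*, the calcium release channel of cardiomyocytes, read 3.36, 7.57 and 3.79 FPKM in the wild-type libraries against 32.1, 6.73 and 6.04 in the knockout ones. These correlations rest on 6 libraries, of which 2 pairs are near repeats and 1 library is far from the rest.

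Genes of the other respiratory complexes had estimates much like those of complex I. The median difference was 0.83 for complex II (6 of 6 above 0), 0.89 for complex III (9 of 9), 1.06 for complex IV (13 of 13) and 0.88 for the ATP synthase (15 of 15). Of these 43 genes 0 passed the test, and 0 had an unadjusted p under 0.05 (limma). *Cox4i1*, a core-binding subunit of complex IV, read 1087, 2035 and 1078 FPKM in the wild-type libraries against 5750, 2203 and 2153 in the knockout ones, with knockout library 1 the highest and wild-type libraries 1 and 3 the lowest. Without knockout library 1 the median of the 43 genes was 0.31, with 34 above 0. Between knockout libraries 2 and 3 and wild-type library 2 it was −0.07, with 18 of 43 higher. A difference between complex I and these complexes was not tested.

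Genes that feed or build complex I had list medians between 0.27 and 0.79. The 17 genes of pyruvate entry and the citric acid cycle, which supply NADH, had a median of 0.79, with 17 of 17 above 0, but of 0.0127, with 10 of 17 above 0, without knockout library 1. The 15 genes of iron-sulfur cluster assembly had a median of 0.30, with 12 above 0, which turned to −0.30, with 5 above 0, without knockout library 1. Among them *Fdxr*, the ferredoxin reductase, was lower in every knockout library, at 12.9, 16.2 and 13.2 FPKM in the wild-type libraries against 8.75, 6.05 and 7.34 in the knockout ones, a difference of −0.85 (SE 0.35) that did not pass (limma, unadjusted p = 0.0509). The 10 tested regulators of mitochondrial biogenesis had a median of 0.27, with 10 of 10 above 0, and of 0.36, with 7 above 0, without that library. Of these, *Ppargc1a*, the coactivator PGC-1alpha, read 1.79, 2.25 and 1.85 FPKM in the wild-type libraries against 12.8, 2.59 and 4.60 in the knockout ones, all knockout libraries being higher (difference 1.40, SE 0.58, limma unadjusted p = 0.0487, adjusted p = 0.999). The 10 genes taken as signs of mitochondrial mass had a median of 0.53, with 10 of 10 above 0, and of 0.15, with 6 above 0, without knockout library 1. The 8 genes of other routes for electrons or NADH had a median of 0.43, with 6 above 0, and of −0.0171, with 3 above 0, without it.

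**Figure D4:**
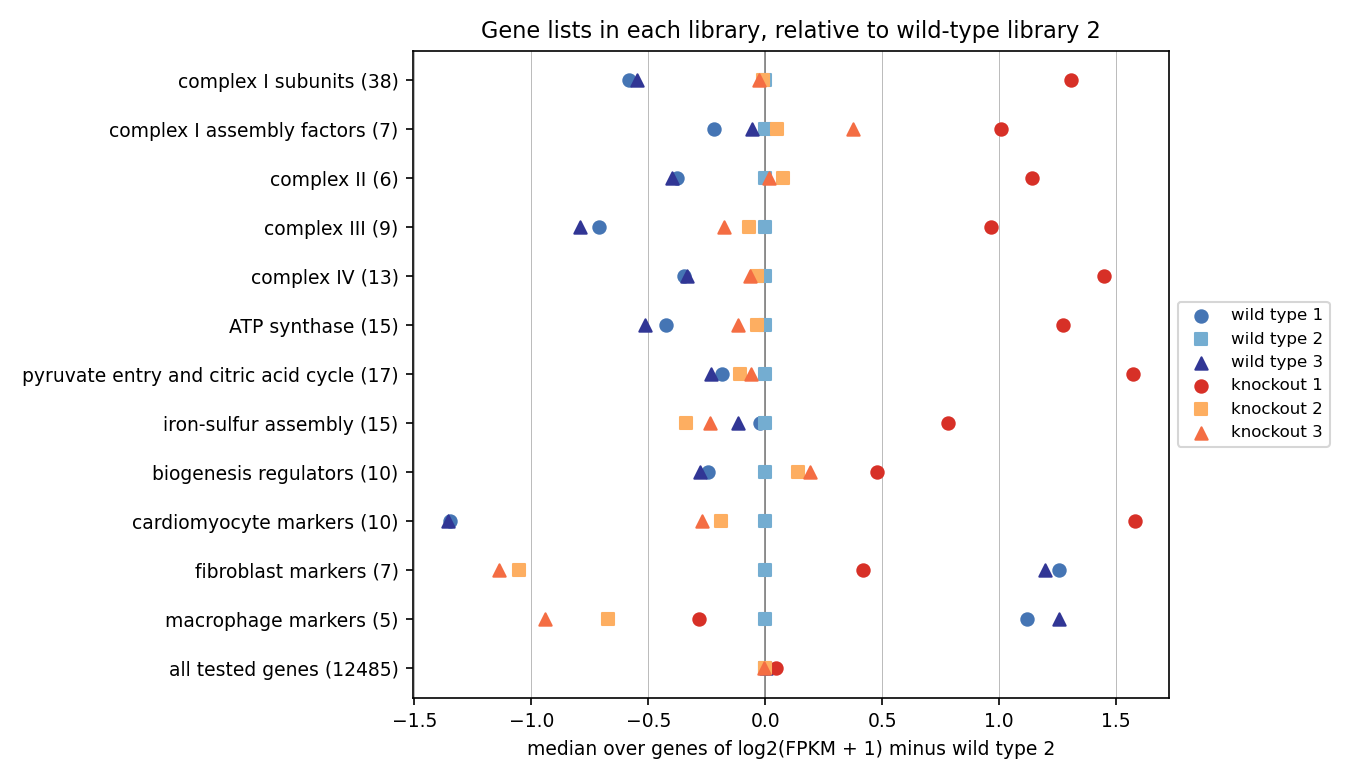
Median over the genes of each list of log2(FPKM + 1) in each library minus wild-type library 2; each point is 1 library and the number of genes stands beside each list. Complex I subunits, the other complexes and cardiomyocyte markers share knockout library 1 as the highest and wild-type libraries 1 and 3 as the lowest, whereas fibroblast and macrophage markers are highest in wild-type libraries 1 and 3.

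Cardiomyocyte markers differed between the libraries in the same order as the members. Relative to wild-type library 2, the median of the 10 cardiomyocyte markers was −1.35 and −1.36 in wild-type libraries 1 and 3 and 1.58, −0.19 and −0.27 in knockout libraries 1 to 3. The subunit median in the same libraries was −0.58 and −0.55 and 1.31, −0.01 and −0.03, the same order of the low pair, the middle 3 and the high library. Summed FPKM of the 10 markers ranged from 7047 to 18238 in wild type and from 13904 to 50831 in knockout, with none at 0. Between genotypes the markers had a mean difference of 1.13, and 6 of 38 subunits had a larger one. The subunit differences minus that mean had a median of −0.20. Without knockout library 1 the median difference of the markers went from 1.15 to 0.18, with 8 of 10 above 0. The part of cardiomyocyte marker level in the complex I differences was not tested.

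Markers of atrial cardiomyocytes, fibroblasts, macrophages and adipocytes had estimates below 0. The 6 atrial markers summed to 1587 to 37639 FPKM in wild type and 279 to 13932 in knockout. The upper end in each group was set mostly by *Nppa*, which encodes atrial natriuretic peptide. In knockout library 1 *Nppa* read 13882 FPKM while *Sln* read 0.684, so the sum there does not stand for all atrial markers. The 7 fibroblast markers summed to 1254 to 3246 FPKM in wild type and 512 to 2171 in knockout, with 7 of 7 estimates below 0 and a median of −1.10. The 5 macrophage markers summed to 116 to 247 FPKM in wild type and 62.3 to 83.9 in knockout. They were lower in every knockout library in 5 of 5, against 11.5% of all genes. Without wild-type libraries 1 and 3 the medians were closer to 0, at −0.52 for atrial markers (−3.22 with them), −0.32 for fibroblast markers and −0.60 for macrophage markers (−1.26 with them). Of the 6 adipocyte markers, 5 were lower in every knockout library (11.5% of all genes). The list had a median of −3.49, and of −3.04 without wild-type libraries 1 and 3. *Adipoq*, *Plin1* and *Retn* were listed at 0 in knockout library 1, and *Plin1* also in knockout library 2. *Fabp4* read 10563 to 13804 FPKM in wild type against 6977, 16206 and 16256 in the knockout libraries, so it was higher in knockout libraries 2 and 3. Endothelial markers had a median of 0.59 (4 of 5 above 0), smooth muscle and pericyte markers −0.50 (4 of 5 below 0), red blood cell markers −0.34 (2 of 2 below 0) and skeletal muscle markers 0.66 (2 of 4 above 0). Without knockout library 1 these medians were 1.06, 0.37 (4 of 5 above 0), 0.33 and −0.0898, so the sign of the last 3 rested on that library. Among the skeletal muscle markers, *Ckm* (1.55) is also counted as a cardiomyocyte marker, and *Tnnt3* was at −1.61, so that median does not stand for skeletal muscle alone. The part of these cells in the complex I differences was not tested.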

How the data were processed

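RNA of mouse hearts was extracted with Trizol and made into Illumina TruSeq libraries, per the labels' protocols. The authors deposited 1 table of FPKM values per gene and library, per the file headers, made with Cufflinks on build mm10, per the submitters' processing notes. The version, aligner, annotation and filters were not given in the sources used here. Columns were matched to samples by the library names in their descriptions.

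From these values, the 12485 genes that reached an FPKM of 1 in 3 or more libraries were tested on log2(FPKM + 1), which understates changes of low genes, with limma 3.58.1 in R 4.3.3 (trend and robust, both directions, Benjamini-Hochberg over all genes, threshold 0.05). The code was tested on simulated data. Fragment depth was recovered from genes with a single transcript: between 76.7% and 78.5% of low values fell within 0.15 of a whole fragment, so depths are approximate and no count test was run. Over 15 library pairs and all levels, squared differences were 1.41 to 2.20 times the counting variance in the 2 close pairs. They were 3.41 to 146 times in the other 13. Among genes of over 1000 fragments the ranges were 1.76 to 2.20 and 63.5 to 146. Each close pair was averaged. With 4 samples an exact permutation test could not go below p = 0.333, and with 6 libraries not below 0.1. It was therefore not used.

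The 45 genes, the companion lists and the tests were chosen with earlier results of these data known. The counts and medians cover all 45, of which 1 gene is not reported here by name. Genes given library by library were otherwise the core subunits, all assembly factors, *Ndufa4*, *Ndufa4l2*, *Ndufab1*, the 6 largest and 6 smallest differences and the 3 highest and 3 lowest levels among other subunits. Of each companion list the 2 genes with the smallest p could be named. *Ndufs6*, *Ndufc2*, *Ndufv3*, *Sln*, *Nppa*, *Plin1*, *Retn* and *Fabp4* were named after their values were seen. Strand, gene spans and transcript lengths came from GENCODE M21 (mm10). Of the 45 genes, 19 overlap exons of another gene, and the kit is not stated to keep strand, so such reads cannot be told apart. For *Ndufb2*, *Ndufb8* and *Ndufb9* an overlapping gene lies on the same strand, where keeping strand would not separate the reads. Listed spans of 4 genes exceeded the annotated ones more than 2-fold. Promoter windows came from RefSeq (GRCm38.p6). Alternatives covered the pseudocount, filter, scaling, variance model, replicate block and the libraries left out.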

Additional observations from a re-analysis of the deposited data

How the results depend on the processing

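No call depended on the processing, since 0 members and 0 genes of complexes II to V passed under any alternative that gave a test. The median difference of the subunits (0.93) kept its direction under every such alternative, from 0.24 without knockout library 1 to 1.26 without wild-type library 2 when libraries were left out singly, and that of the assembly factors (0.66) ran from 0.25 to 0.69. Some comparisons gave values without a test. With knockout libraries 2 and 3 against wild-type library 2, chosen after seeing the data, the subunit median was −0.0217 (18 of 38 higher), the assembly factor median 0.25, and that of complexes II to V −0.0749 (18 of 43 higher). Within the first run of record numbers, also chosen after seeing the data, the subunit median was 0.93. Within the second, which holds a near repeat of each genotype, it was 0.56, with 0.14 for the assembly factors. The 6 libraries taken as separate samples gave a subunit median of 0.80, with 12 of 45 members at an unadjusted p under 0.05 (15.1% of all genes). Same-numbered libraries deviated with r of 0.116, 0.125 and −0.0977. Each group holds a pair of near repeats, so these values cannot show whether the numbers pair the samples. The fit with the replicate block also gave 0.80 and 0 calls. TPM moved the median of all genes by −0.12, and the subunits then lay 0.88 above it, beside 0.89 before. Of 608 comparisons for 32 named genes, 17 changed sign. With libraries left out singly, all but *Ndufa12* and *Ndufaf7* turned only without knockout library 1, and the estimates ran from −0.23 to 0.80 for *Ndufs1*, −0.0199 to 0.92 for *Ndufv2*, −0.31 to 0.62 for *Ndufa6*, −0.00490 to 0.62 for *Ndufa7*, −0.0635 to 1.13 for *Ndufa10*, −0.37 to 0.80 for *Ndufb4*, −0.0497 to 0.65 for *Ndufaf4*, −0.73 to 1.10 for *Ndufa12* and −0.14 to 0.0370 for *Ndufaf7*. *Ndufaf7* was also 0.0186 without wild-type library 2. *Ndufs5* was 0.0274 without wild-type libraries 1 and 3 and 0.98 without knockout libraries 2 and 3. *Ndufa12* was −0.00346 with median centring, −0.0958 with TPM, −0.22 without wild-type library 1, −0.13 without knockout library 2 and −1.02 without wild-type libraries 1 and 3. The cause of these changes was not tested.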
